A study of Mus musculus with 9 samples.

Results

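T cell receptor alpha chains whose joining segment was 1 of the TRAJ genes numbered 21 to 30 were counted in cells of mouse lymph nodes, from WT and from 5xFAD animals. Members were all productive TRA contigs whose first J call carried such a number, and identical combinations of TRAV subgroup, J gene and junction nucleotides were counted once per library as 1 distinct chain. The rule found 8 genes, TRAJ21, TRAJ22, TRAJ23, TRAJ24, TRAJ26, TRAJ27, TRAJ28 and TRAJ30, of 43 TRAJ genes called. They made up 4393 of 21997 distinct TRA chains in 8 libraries.

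The alpha chain variable region is joined in developing thymocytes from 1 TRAV and 1 TRAJ segment, and repeated rearrangement of the same locus can replace a first join with one that uses a TRAV farther upstream and a TRAJ farther downstream. TRAJ genes are numbered from the 3′ end of their cluster, so genes with numbers between 21 and 30 lie in its middle. Trimming of the segment ends and addition of bases without a template at the join make the junction, which encodes the third complementarity-determining region, the part of the chain that most often touches the presented peptide.

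The groups came from females 10 to 11 months old. WT mice and 5xFAD mice, a transgenic model of Alzheimer's disease, each gave 1 library per node type, from inguinal nodes (iLN) and from the superficial (sCLN) and deep (dCLN) cervical nodes. Cells of tubes tagged with hashtag antibodies were pooled per library, and neither the number of animals per library nor whether nodes share animals is stated in the labels. An added pair of dCLN tables carries CD4 in its titles, and the tables labelled WT and 5xFAD of that pair share 6829 barcodes and 12709 barcode and junction combinations. Only the table labelled WT of that pair is used here, as the CD4-titled library, and no genotype is read from it. The mixed library is labelled as joining the 3 nodes and both genotypes. The WT libraries held 2050 distinct TRA chains from iLN, 1420 from sCLN and 1459 from dCLN. The 5xFAD libraries held 1522 from iLN, 2894 from sCLN and 3526 from dCLN, and the CD4-titled and mixed libraries 5650 and 3476. Any pair of these 8 libraries shared at most 46 barcodes and 0 combinations of barcode and junction. Intervals below cover counting error only.

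The 8 segments are shown because their lengths and their 5′ ends set the junction values and the allele calls that follow. They are the plus-strand segments of the GENCODE annotation of GRCm38 on chromosome 14, listed by number, which is from the 3′ to the 5′ side of the cluster, and the capitals mark the codons of the phenylalanine-glycine-any-glycine motif with which the constant framework begins.
TRAJ21, chr14:54198790-54198846: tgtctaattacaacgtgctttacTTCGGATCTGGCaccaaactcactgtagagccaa
TRAJ22, chr14:54197248-54197307: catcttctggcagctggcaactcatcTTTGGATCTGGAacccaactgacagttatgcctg
TRAJ23, chr14:54196081-54196140: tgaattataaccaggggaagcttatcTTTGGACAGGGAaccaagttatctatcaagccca
TRAJ24, chr14:54195638-54195700: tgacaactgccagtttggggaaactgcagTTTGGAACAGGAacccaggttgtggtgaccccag
TRAJ26, chr14:54194490-54194549: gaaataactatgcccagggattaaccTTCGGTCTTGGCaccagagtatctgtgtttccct
TRAJ27, chr14:54192303-54192361: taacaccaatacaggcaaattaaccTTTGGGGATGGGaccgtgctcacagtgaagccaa
TRAJ28, chr14:54191661-54191725: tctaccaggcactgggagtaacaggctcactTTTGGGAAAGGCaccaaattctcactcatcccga
TRAJ30, chr14:54189866-54189924: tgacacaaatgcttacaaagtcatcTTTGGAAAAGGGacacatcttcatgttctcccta

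TRAJ21 is the shortest of the 8 at 57 bases and TRAJ28 the longest at 65 bases. Through the phenylalanine codon of the motif, an untrimmed TRAJ21 gives 26 bases to the junction, TRAJ24 gives 32 and TRAJ28 gives 34. TRAJ25 and TRAJ29 are annotated in the same stretch, and 0 of 23088 productive TRA contigs were called as either. A count of 0 allows a share of up to 0.0136% of distinct chains for each.

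TRAJ22 and TRAJ23 were the most used of the 8 genes, and TRAJ24 and TRAJ28 the least used. Over the 6 main libraries the mean share of distinct TRA chains was 4.18% ± 0.88 (SD, n = 6) for TRAJ22 and 3.69% ± 0.32 for TRAJ23. TRAJ26 followed with 3.16% ± 0.25, TRAJ27 with 3.15% ± 0.19 and TRAJ30 with 3.02% ± 0.28. These 3 neighbours differed by less than their spread over libraries. For TRAJ22 and TRAJ23 the order depended on the genotype. Their WT means were 4.96% ± 0.21 and 3.75% ± 0.35, and their 5xFAD means 3.39% ± 0.12 and 3.62% ± 0.36 (SD, n = 3). TRAJ21 stood lower at 2.03% ± 0.65, TRAJ24 at 0.883% ± 0.19 and TRAJ28 at 0.508% ± 0.14. Among all 43 TRAJ genes ranked by chains in these libraries, TRAJ22 was number 2, TRAJ23 number 5 and TRAJ28 number 42.

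**Figure D1:**
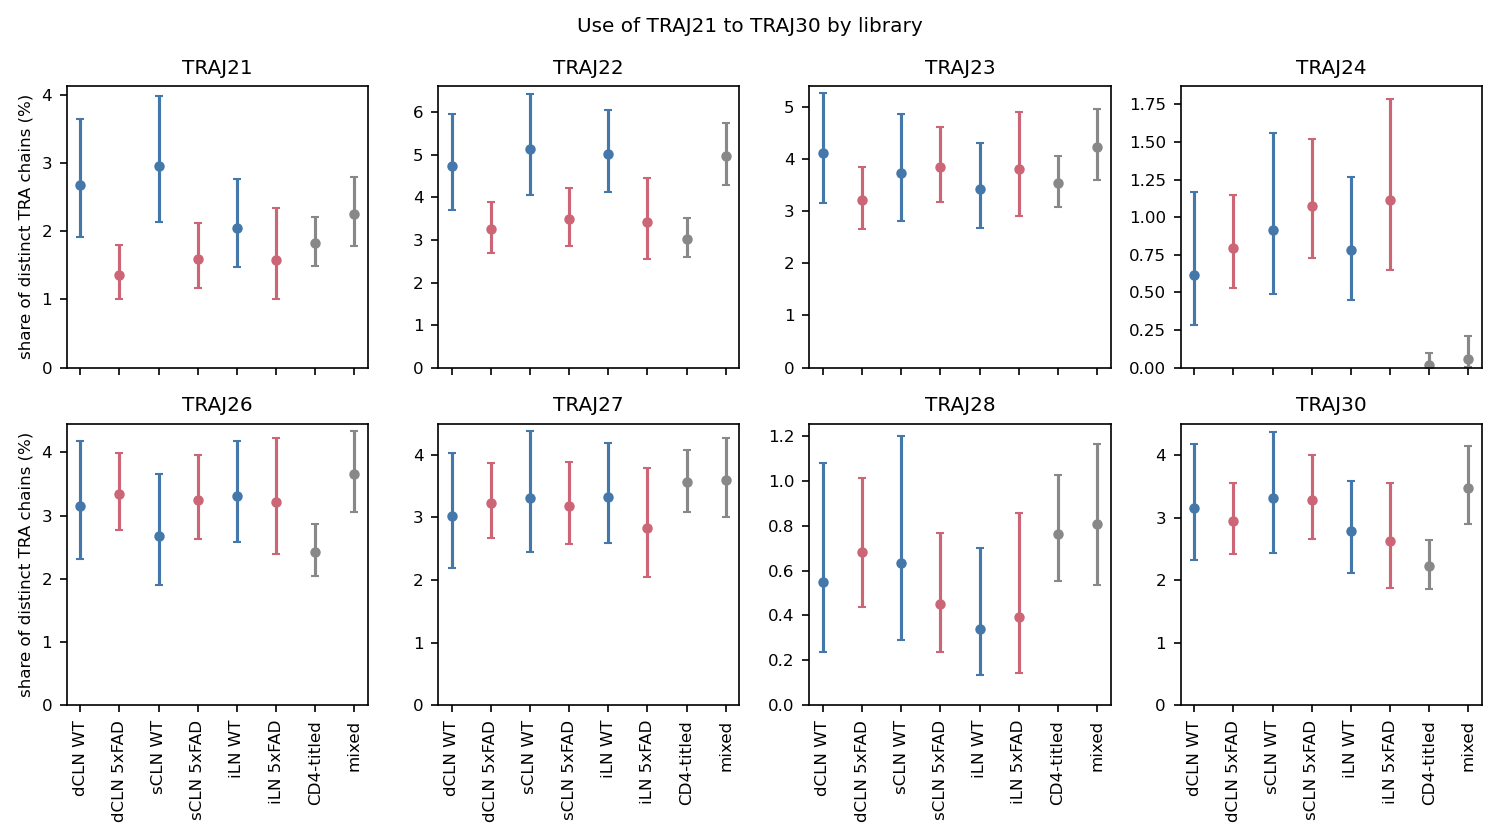
Share of distinct TRA chains (y axis, %) that used each of the 8 genes in each of 8 libraries (x axis), with exact 95% counting intervals. Blue points are WT, red points 5xFAD and grey points the CD4-titled and mixed libraries. TRAJ21 and TRAJ22 were lower in each red point than in every blue point, and TRAJ24 was close to 0 in both grey points.

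Together the 8 genes made up 21.02% of iLN chains, 22.7% of sCLN chains and 22.0% of dCLN chains in WT, against 19.0%, 20.1% and 18.8% of those in 5xFAD. The mean was 21.9% ± 0.83 for WT and 19.3% ± 0.72 for 5xFAD (SD over nodes, n = 3), and the groups did not overlap. TRAJ21 and TRAJ22 were the members with lower shares in 5xFAD in all 3 nodes and no overlap. These 2 genes were already known to be lower when the members were chosen. The sum includes both, and the groups of each other member overlapped. Its lack of overlap is therefore not a separate result about the 8 genes.

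In WT, TRAJ22 made up 5.02% of iLN chains, 5.14% of sCLN chains and 4.73% of dCLN chains. In 5xFAD it made up 3.42% of iLN chains, 3.49% of sCLN chains and 3.26% of dCLN chains. Every WT library was above every 5xFAD library, and the 3 values within each genotype lay close together. The means were 4.96% ± 0.21 in WT and 3.39% ± 0.12 in 5xFAD (SD, n = 3), and the fitted log2 fold change was -0.55 (SE 0.09). The unadjusted p of 0.00297 became 0.26 after Benjamini-Hochberg adjustment over 94 V and J features in edgeR's quasi-likelihood test, so TRAJ22 did not pass the threshold of 0.05. With the TRAJ genes tested alone its adjusted p was 0.00137, and without a term for node it was 0.0423, both from edgeR. The edgeR unadjusted p with TRAJ genes alone was 3.26e-05, so more than the number of tests changed in that fit. With DESeq2 on all 6 libraries the DESeq2 adjusted p was 0.999. The edgeR adjusted p was 0.802 without both dCLN libraries, 0.18 without both sCLN libraries and 0.136 without both iLN libraries.

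In WT, TRAJ21 made up 2.05% of iLN chains, 2.96% of sCLN chains and 2.67% of dCLN chains. In 5xFAD it made up 1.58% of iLN chains, 1.59% of sCLN chains and 1.36% of dCLN chains. The groups did not overlap, and the WT library nearest to 5xFAD was iLN. The means were 2.56% ± 0.46 in WT and 1.51% ± 0.13 in 5xFAD (SD, n = 3), with a fitted log2 fold change of -0.77 (SE 0.18) and an edgeR adjusted p of 0.26 (0.0111 before adjustment). Without both iLN libraries the log2 fold change was -0.93 and the edgeR adjusted p 0.0436. Leaving out iLN WT alone (edgeR adjusted p = 0.04) or iLN 5xFAD alone (0.0486) repeats that comparison, as the iLN library left informs its node term only. Without both dCLN libraries the log2 fold change was -0.65 (edgeR adjusted p = 0.802). Without both sCLN libraries it was -0.71 (edgeR adjusted p = 0.231), and with DESeq2 on all 6 libraries -0.76 (DESeq2 adjusted p = 0.999). The spread behind these p-values is that of the genotype difference over 3 node types, not that between animals.

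In that fit 0% of the 94 features were called lower in 5xFAD and 0% higher, and 16% had an unadjusted p under 0.05, among them 2 of the 8 genes. DESeq2 also called 0 features after adjustment, with 2 features and 0 of the 8 genes under 0.05 before it. Shares that did not overlap between genotypes and were lower in 5xFAD were found for 13.8% of all features, and 13.8% were higher without overlap. For the 8 genes that count was 2 lower and 0 higher.

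Within single nodes, the counting interval of the log2 ratio lay below 0 for TRAJ21 and TRAJ22 in dCLN and in sCLN, and for TRAJ22 in iLN. In dCLN the ratio was -0.98 for TRAJ21 (95% interval -1.58 to -0.37) and -0.54 for TRAJ22 (-0.97 to -0.11). In sCLN it was -0.90 for TRAJ21 (-1.50 to -0.30) and -0.56 for TRAJ22 (-0.99 to -0.13). In iLN it was -0.37 for TRAJ21 (-1.08 to 0.35) and -0.55 for TRAJ22 (-1.03 to -0.07). Across all 94 features, intervals below 0 were found for 13.8% of features within iLN, 12.8% within sCLN and 9.57% within dCLN, and intervals above 0 for 9.57%, 7.45% and 5.32%. None of the 8 genes had an interval above 0 in any of the 3 nodes.

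**Figure D2:**
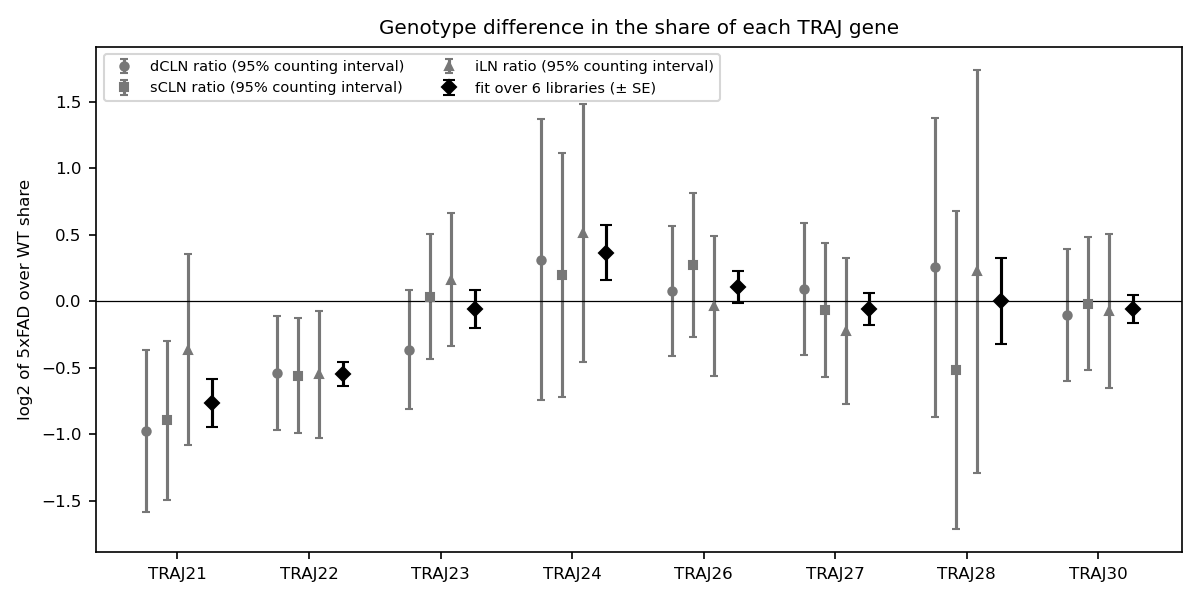
Log2 of the 5xFAD share over the WT share (y axis) for each of the 8 genes (x axis). Grey symbols are single nodes with 95% counting intervals, and black diamonds are the fit over 6 libraries with its SE. TRAJ22 was close to -0.55 in all 3 nodes, and TRAJ21 ranged from -0.98 in dCLN to -0.37 in iLN.

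The other 6 genes had fitted log2 fold changes between -0.06 and 0.36, with edgeR adjusted p-values of 0.589 or above. TRAJ24 was the member with a higher share in 5xFAD in all 3 nodes, with 1.12% of iLN chains (WT 0.78%), 1.07% of sCLN chains (WT 0.915%) and 0.794% of dCLN chains (WT 0.617%). Its groups overlapped, it rested on 9 to 31 chains per library, and its log2 fold change was 0.36 (SE 0.20, edgeR adjusted p = 0.589). TRAJ23 ranged from 3.20% in dCLN 5xFAD to 4.11% in dCLN WT, and TRAJ26 from 2.68% in sCLN WT to 3.35% in dCLN 5xFAD. TRAJ27 ranged from 2.83% to 3.32%, TRAJ28 from 0.341% to 0.681% and TRAJ30 from 2.63% to 3.31%, each with overlapping groups. TRAJ30 was lower in 5xFAD in all 3 nodes, with a log2 fold change of -0.06 (SE 0.11).

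The other TRAJ genes were set beside these 8 by their place in the cluster. The fitted change was above 0 for 6 of 6 tested genes numbered 50 and above, with a median log2 fold change of 0.18, and for 10 of 11 genes numbered 35 to 49, with a median of 0.18. It was above 0 for 2 of 4 genes numbered 31 to 34 (median -0.02) and for 6 of 13 genes numbered 2 to 20 (median -0.04). The 8 genes had 3 above 0 and a median of -0.06, beside a median of 0.10 over all 42 TRAJ genes tested and 0.01 over all 94 features. None of these genes passed the edgeR threshold. By Pearson correlation of log2 share over the 6 main libraries, the genes most like TRAJ21 were TRAJ6 (r = 0.94), TRAJ12 (0.92) and TRAJ22 (0.91), and those most like TRAJ22 were TRAJ21 (0.91), TRAJ12 (0.87) and TRAJ37 (0.85). These points share libraries and therefore their genotype and depth.

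None of the 8 genes passed the threshold between node types in edgeR, where 0% of features were called for dCLN against sCLN, 0% for dCLN against iLN and 0% for sCLN against iLN. At an unadjusted p under 0.05 edgeR gave 3, 1 and 2 of 94 features in these contrasts with 0 of the 8 genes in each, and DESeq2 gave 0 features in all 3. The largest fitted node difference among the 8 genes was a log2 fold change of 0.78 (SE 0.40) for TRAJ28 between dCLN and iLN, which rested on 6 to 24 chains per library (edgeR adjusted p = 0.949).

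Another allele set was used for the calls of the CD4-titled and the mixed library, which enter no test. TRAJ22 made up 3.03% of chains (interval 2.60 to 3.51) in the CD4-titled library and 4.98% (4.28 to 5.75) in the mixed library. The first value was below all 3 main 5xFAD libraries and the second within the range of the WT libraries. TRAJ21 made up 1.82% (1.49 to 2.21) and 2.24% (1.78 to 2.79) of chains in the same libraries.

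The J calls were uniform. Cell Ranger's J call named the same gene in 4654 of 4654 productive member contigs, the aligned J bases matched the germline allele without a mismatch in 4617 of them, and 0 contigs had more than 1 J gene in the call. Apart from TRAJ24, every gene was called with allele 01 alone. The last 30 bases of each reference segment, searched with up to 2 mismatches in every TRA contig of all 9 tables, were found in 5819 contigs, of which 0 were called as another J gene.

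TRAJ24 was the exception between the 2 allele sets. Among productive chains its share was between 0.617% and 1.12% in the main libraries, but 0.0177% (1 chain) in the CD4-titled library and 0.0575% (2 chains) in the mixed library. The segment itself was still there, as the reference TRAJ24 end was found in 38 and 33 contigs of these libraries, each called TRAJ24. Of these, 37 and 31 were called allele 02, and every allele 02 contig was marked nonproductive and out of frame. Their junctions had a length divisible by 3, held no stop codon and were identical to the junction given by Cell Ranger in 37 of 37 and 31 of 31 contigs. They were 37 of 37 nonproductive TRA contigs in the CD4-titled library and 31 of 32 in the mixed library. The 3 TRAJ24 contigs that were marked productive had a call of both alleles.

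**Figure D3:**
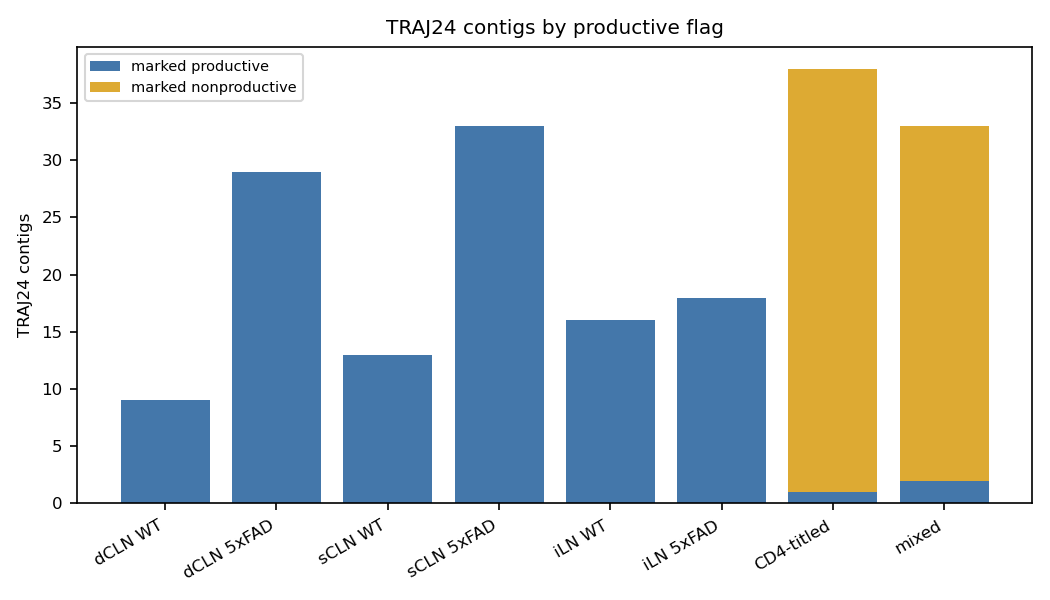
TRAJ24 contigs (y axis) by library (x axis), split by the productive flag in the deposited tables. All TRAJ24 contigs of the 6 main libraries were marked productive, against 1 of 38 in the CD4-titled and 2 of 33 in the mixed library.

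With the flag set aside, TRAJ24 made up 0.668% (interval 0.473 to 0.916) of chains in the CD4-titled library and 0.856% (0.578 to 1.22) in the mixed library. Both values lay within the range of the main libraries. The main tables called all 118 TRAJ24 contigs allele 01, and their J alignment started at position 8 of that allele in the median contig and never before position 7. In the CD4-titled and mixed libraries the alignment started at position 4 in the median contig and reached position 1.

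A base difference that no J call records was present in TRAJ21. At position 3, counted from 1 at the 5′ end of the segment (position 54198792 of chromosome 14, GRCm38), the reference has the base that comes first in T3C, and the second base of T3C was read in many chains. The substitution turns the codon TCT, for serine, into CCT, for proline, at the start of the part of the junction that TRAJ21 encodes. Both forms are shown as read from contigs, with position 3 in capitals, the first from WT and the second from 5xFAD libraries.
TRAJ21 with the reference base: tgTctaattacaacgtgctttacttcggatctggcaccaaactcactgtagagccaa
TRAJ21 with the other base: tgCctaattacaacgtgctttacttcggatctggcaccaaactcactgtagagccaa

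Position 3 was read in chains that kept the reference base before it and the 15 bases after it. In WT, 19 chains of iLN had T and 8 had C, 19 of sCLN had T and 9 had C, and 14 of dCLN had T and 5 had C. In 5xFAD, 0 chains of iLN had T and 15 had C, 0 of sCLN had T and 29 had C, and 1 of dCLN had T and 34 had C. The count of 0 allows a share of up to 10.3% in sCLN and 20.0% in iLN. The CD4-titled library held 19 with T and 45 with C, and the mixed library 52 with T and 3 with C. WT libraries thus held both forms, at 70.3% T (52 of 74, exact interval 58.5 to 80.3), and 5xFAD libraries nearly the C form alone, at 1.27% T (1 of 79, 0.032 to 6.85).

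**Figure D4:**
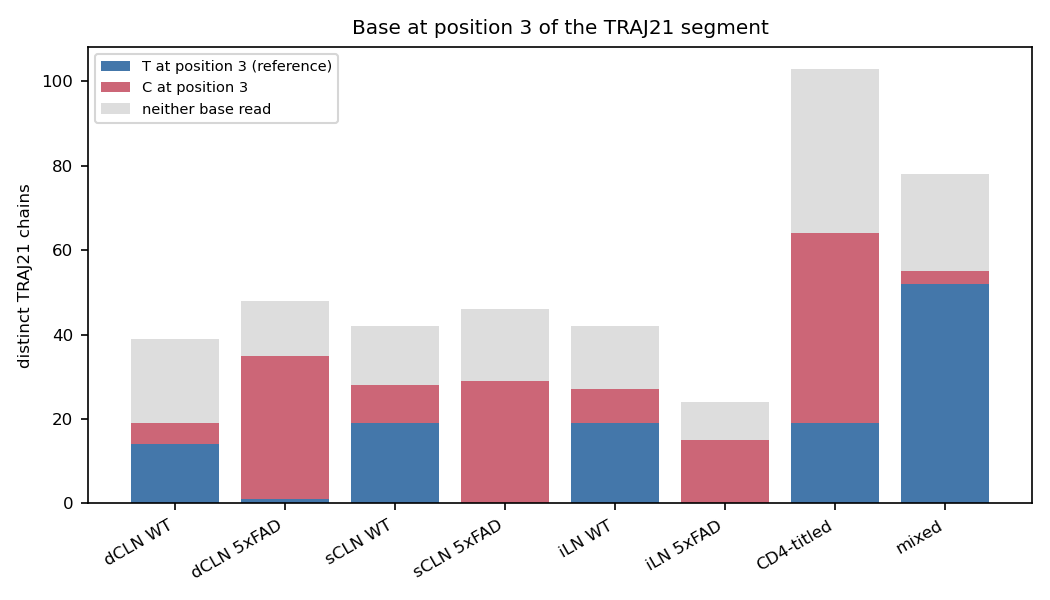
Distinct TRAJ21 chains (y axis) in each library (x axis) by the base at position 3 of the segment. Chains with C were 5 to 9 of each WT library and 15 to 34 of each 5xFAD library, and 1 chain in the 3 5xFAD libraries had T.

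As a share of all TRA chains, TRAJ21 with T made up 0.927% (iLN), 1.34% (sCLN) and 0.96% (dCLN) in WT. TRAJ21 with C made up 0.39%, 0.634% and 0.343% of chains in these libraries, and 0.986%, 1.00% and 0.964% in iLN, sCLN and dCLN of 5xFAD. Chains trimmed past position 3 count in neither form. The C form was thus higher in each 5xFAD library than in each WT library, the opposite order to TRAJ21 as a whole. These are shares of all TRA chains, in WT libraries that held both forms and 5xFAD libraries that held nearly C alone.

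By the rule that another base than the reference made up at least 90% of 30 or more chains in the pooled 5xFAD libraries, 12 TRAJ genes had such a site, TRAJ21 among them. For the other 7 of the 8 genes the highest share of any other base at a site was 17.1%, for A2G in TRAJ26. In WT, the reference base made up 34.4% to 65.0% of chains at the sites of the other 11 genes, with a median of 49.4%, against 70.3% in TRAJ21. The interval of TRAJ21 overlaps that of the nearest of these genes, and the difference was not tested. The sites were found after the data were seen.

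The base went with the V segment of the same chain. A V segment was called matching when its mature part occurred exactly in the V transcripts of GRCm38, and 10 TRAV subgroups were informative, with under 2% of chains matching in 5xFAD. In WT, TRAJ21 chains of these subgroups had T in 14 and C in 2 with a matching V, and T in 0 and C in 7 with a V that differs. In the CD4-titled library the counts were 8 and 0 for matching V, and 1 and 18 for V that differs. Over all 8 libraries they were 39 and 3 for matching V, and 2 and 61 for V that differs. The last pair includes 1 with T and 35 with C from 5xFAD. Those 5xFAD counts are no separate result, as the site and the subgroups were chosen by their 5xFAD values.

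The share of TRA chains with a matching V was 54.4% to 55.6% in the 3 WT libraries and 13.0% to 15.05% in the 3 libraries of 5xFAD. It was 35.03% in the CD4-titled and 95.2% in the mixed library. The mixed library was above all 3 WT libraries both in this share and in the share of T at position 3 of TRAJ21 (94.5%), so its values lie outside the range of the main WT and 5xFAD libraries that its label would join. This share separates the genotypes in the same way as TRAJ21 and TRAJ22, so germline background and 5xFAD transgenes cannot be told apart in these libraries.

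Within the 10 informative subgroups, TRAJ22 made up 5.42% (iLN), 6.89% (sCLN) and 6.15% (dCLN) of matching WT chains, and 3.98%, 3.12% and 3.403% of WT chains that differ. In 5xFAD, where chains of these subgroups nearly all differ, it made up 2.64%, 3.602% and 3.09%. Matching WT chains were above the others in each node, while WT and 5xFAD chains that differ overlapped. The counting intervals of matching and differing WT chains overlapped in each node, here and over all TRAV subgroups. In the CD4-titled library TRAJ22 made up 3.21% of matching and 2.89% of differing chains of these subgroups, with overlapping intervals. Over all TRAV subgroups it made up 5.00% of matching and 5.05% of differing chains in iLN WT, so that the order held there in dCLN and sCLN of WT and not in iLN. Within the informative subgroups the TRAJ22 means were 6.15% ± 0.73 and 3.50% ± 0.44 in WT and 3.11% ± 0.48 in 5xFAD (SD, n = 3). TRAJ23, with a fitted genotype change of -0.06, also had a higher mean in matching WT chains (4.30% ± 1.23 against 2.80% ± 0.47). The split was thus not particular to the genes lower in 5xFAD. TRAJ27 had 3.56% and 3.26%, TRAJ26 2.86% and 2.87%, and TRAJ30 2.57% in both. TRAJ24 and TRAJ28, with few chains, were lower in matching chains.

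TRAJ21 in the same subgroups made up 3.13% (iLN), 3.28% (sCLN) and 1.62% (dCLN) of matching WT chains, against 0.398%, 1.13% and 1.83% of WT chains that differ. In 5xFAD it made up 1.47%, 1.66% and 1.46% of chains that differ. The order of matching and differing chains was not the same in dCLN as in the other 2 nodes. The WT values of chains that differ rest on 2 (iLN), 4 (sCLN) and 7 (dCLN) chains, which limits them. The means over nodes of chains that differ were 1.12% ± 0.72 in WT and 1.53% ± 0.11 in 5xFAD (SD, n = 3).

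Over all TRAV subgroups, TRAJ21 made up 2.98% (iLN), 4.40% (sCLN) and 2.99% (dCLN) of matching WT chains. It made up 0.879%, 1.24% and 2.28% of WT chains that differ. The counting intervals of these 2 classes were apart in iLN and sCLN and overlapped in dCLN. Chains that differ, of all TRAV subgroups, gave means for TRAJ21 of 1.47% ± 0.73 in WT and 1.44% ± 0.23 in 5xFAD. For TRAJ22 these means were 4.19% ± 0.94 and 3.34% ± 0.32 (SD, n = 3 for each). The fit over 6 libraries with these non-reference chains of all TRAV subgroups gave a genotype log2 fold change of -0.01 for TRAJ21 (edgeR adjusted p = 1.00) and -0.33 for TRAJ22 (edgeR adjusted p = 0.884).

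**Figure D5:**
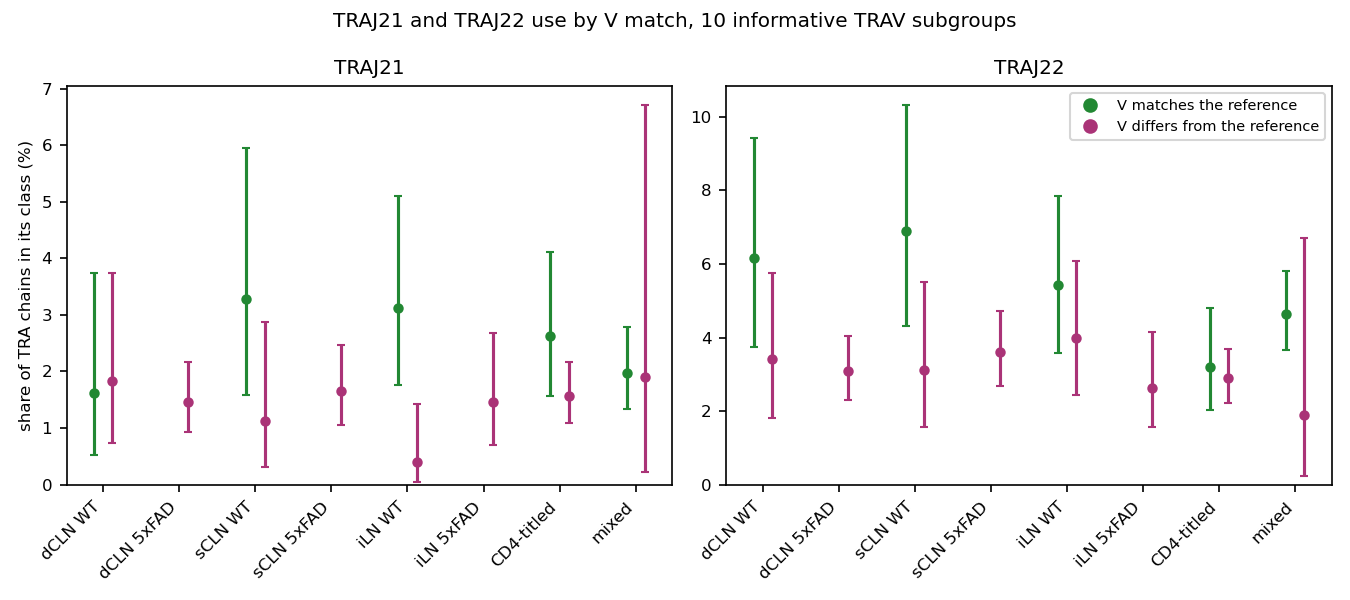
Share of TRAJ21 (left) and TRAJ22 (right) among TRA chains of the 10 informative TRAV subgroups (y axis, %), by library (x axis), for chains whose V matches the reference (green) and chains whose V differs (purple), with exact 95% counting intervals. Classes with under 50 chains are not drawn. Green points of TRAJ22 in WT lie between 5.42% and 6.89%, and purple points of WT and 5xFAD between 2.64% and 3.98%.

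TRAV partners of the 8 genes were largely those of the repertoire as a whole. TRAV6 was the most frequent partner of each, from 17.4% of TRAJ27 chains to 26.9% of TRAJ23 chains over the 6 main libraries. TRAV7 or TRAV13 came next for every gene, and TRAV12 was among the 3 most frequent partners of TRAJ23 and TRAJ28. Of all 160 pairs of a member and 1 of 20 TRAV subgroups, 35 had 0 chains. An exact interval that left out the share of that subgroup in all other TRA chains was found for 17 pairs, 8 above it and 9 below it, 2 of the latter with 0 chains. The same count was not made for the other TRAJ genes, so the 17 pairs have no baseline. Chains were pooled over the 6 main libraries, and the intervals leave out the spread between libraries.

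TRAJ23 used TRAV6 in 125 of 465 chains (26.9%, interval 22.9 to 31.2) against 21.2% of the chains of all other TRAJ genes, and TRAV12 in 11.6% (8.85 to 14.9) against 7.78%. TRAV12 was above its share in the other chains in 6 of 6 libraries, and TRAV6 in 4. TRAJ21 used TRAV7 in 19.1% of 241 chains (14.3 to 24.6) against 13.5%. TRAJ21 chains with TRAV7 were 11 of 42 in sCLN WT and 11 of 42 in iLN WT, against 5 of 39 in dCLN WT, 7 of 48 in dCLN 5xFAD, 8 of 46 in sCLN 5xFAD and 4 of 24 in iLN 5xFAD. The higher use of TRAV7 thus came mostly from 2 WT libraries. TRAV21 was found with TRAJ21, TRAJ22, TRAJ26 and TRAJ30 in 1 chain each and with TRAJ27 in 2, or 0.195% to 0.49% of their chains, against 1.82% to 1.86% of the other chains. It was found in 0 of 465 TRAJ23 chains, which allows a share of up to 0.645%, against 1.86% of the other chains. It was also found in 0 of 114 TRAJ24 and 0 of 67 TRAJ28 chains, which allow 2.63% and 4.48%. For TRAJ21, TRAJ24 and TRAJ28 the interval held the share of the other chains.

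The shortest segment had the shortest junctions and the 2 longest segments had the longest. Mean junction length over the 6 main libraries was 37.5 nucleotides for TRAJ21 (SD 3.54 over 241 chains), 42.7 for TRAJ24 (2.95 over 114) and 43.9 for TRAJ28 (3.04 over 67), against 40.7 (4.29) for all other TRAJ genes. TRAJ22 had 41.0, TRAJ23 39.98, TRAJ27 39.7, TRAJ30 39.6 and TRAJ26 38.9. Between libraries the mean of TRAJ21 ranged from 36.5 to 38.1 and that of TRAJ24 from 41.5 to 43.9, so that their ranges did not meet.

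The number of added bases in the deposited tables differed from that found with the reference segments. The deposited median was 7 for TRAJ24 and 4 for TRAJ21, against 2 for each of the other 6 genes and for all other TRAJ chains. When the start of J was taken from the reference segment, with either base allowed at position 3 of TRAJ21, the median was 2 for all 8 genes. For TRAJ21 the deposited median was 2 in chains with T and 5 in chains with C, and 2 in both by the reference segment. The deposited medians of 3 in WT and 5 in 5xFAD for TRAJ21 became 2 and 2.

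The genes differed in how much of their 5′ end was kept. The full segment was present in 45.3% of TRAJ22 chains and 41.1% of TRAJ21 chains, but in 9.47% of TRAJ26 and 11.9% of TRAJ28 chains. The median trimming was 1 base for TRAJ21, TRAJ22 and TRAJ30, 2 for TRAJ27, 3 for TRAJ23 and TRAJ24, and 4 for TRAJ26 and TRAJ28. An added base that equals the germline base counts as kept in these values. No added base was found in 25.96% of TRAJ30 chains and 14.5% of TRAJ27 chains.

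Identical chains recurred across libraries. Of 4011 distinct combinations of TRAV subgroup, J gene and nucleotide junction among the 8 genes, 280 (6.98%) were found in 2 or more of the 8 libraries, against 959 of 16414 (5.84%) among all other TRAJ genes. Of the 280, 74 were in main libraries of both genotypes, 22 in WT main libraries alone, 36 in 5xFAD main libraries alone, 131 in 1 main library and the CD4-titled or mixed library, and 17 in the latter 2 alone. These counts are not scaled for depth, which was higher in 5xFAD than in WT for both cervical nodes. Whether nodes of a genotype share animals is not stated. The share found in more than 1 library was 10.0% for TRAJ22 and 8.96% for TRAJ30, but 3.96% for TRAJ21. For TRAJ24 it was 3.604%, with the allele 02 contigs left out by the productive flag.

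The most widely found amino acid junction of a gene is shown for 4 of them by its most frequent nucleotide form, to show how much of it is germline J. Capitals mark the bases that match the J segment up to its 5′-most kept base.
TRAJ22 with TRAV14: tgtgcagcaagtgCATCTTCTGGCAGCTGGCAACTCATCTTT
TRAJ30 with TRAV6: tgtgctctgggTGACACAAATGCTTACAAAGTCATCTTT
TRAJ21 with TRAV6: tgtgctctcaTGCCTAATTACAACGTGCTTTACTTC
TRAJ24 with TRAV4: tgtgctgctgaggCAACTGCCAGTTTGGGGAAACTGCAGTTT

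The TRAJ22 junction kept the full segment, was found in 7 libraries in this nucleotide form, and its 14 amino acids stood in 37 barcodes over 7 nucleotide forms. The TRAJ30 junction also kept the full segment. Its 13 amino acids stood in 23 barcodes of all 8 libraries, in 3 nucleotide forms, the form shown being in 6 libraries. The TRAJ21 junction carries the C form of position 3 and was found in 4 libraries, and its amino acid sequence in the 3 5xFAD main libraries, iLN WT and the CD4-titled library. The TRAJ24 junction was found in 1 nucleotide form in the 4 cervical main libraries, 1 barcode in each.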

How the data were processed

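Lymph node cells were pooled after hashtag staining and made into single-cell TCR libraries, per the labels' protocols. The submitters' processing notes name Cell Ranger 6.0.1, Seurat 4.1.0 and mm10 without saying what each was used for. Each of 9 tables had a row per contig with V and J calls from IgBLAST and from Cell Ranger, per the file headers. The deposited counts are UMIs and reads per contig, not normalized. A deposited fraction gives the identity of the aligned J bases. Junction length, added bases and J start are other deposited values in nucleotides. The germline sets used for the calls are not given in the sources used here.

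Distinct productive chains were counted per library for TRAV subgroups and TRAJ, TRBV and TRBJ genes, keeping 94 features with at least 10 over the 6 main libraries. Barcodes with at least 2 TRB or 3 TRA chains, which could be doublets, were kept and left out in an alternative. edgeR 4.0.16 (R 4.3.3) fitted node and genotype by quasi-likelihood with the log of distinct chains of the locus as offset. P-values were adjusted by Benjamini-Hochberg within each contrast, with a threshold of 0.05. With 1 library per node and genotype they do not measure the spread between animals. On simulated counts for 94 features in the genotype comparison, 50% of 1.5-fold and 87.5% of 2-fold changes were recovered. The simulation set the same dispersion for all features, not estimated from these data, and no node effect. These rates therefore need not hold for the libraries described. Within nodes, 0.5 was added to each count before log2 ratios were taken, with 95% counting intervals. Exact Clopper-Pearson 95% intervals were used for shares, with a limit of 3 counts where none was found. Reference segments came from GENCODE vM21. DESeq2 1.42.0 was an alternative, beside other counted units, scalings and filters and leaving out each library.

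All 8 genes are named, with their 3 most frequent TRAV subgroups, the 3 TRAJ genes most like TRAJ21 and TRAJ22, and per gene the amino acid junction found in most libraries. TRAV subgroups outside these were named after their values were seen. Members and lists were chosen with earlier results of these data known. The J sites, the split by V match and the TRAJ24 shares without the productive flag were added after seeing the data.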

Additional observations from a re-analysis of the deposited data

Results flagged for a closer look

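TRAJ24 contigs marked nonproductive lie outside the chains counted in the comparisons. There were 37 in the CD4-titled library used here, 39 in the table labelled 5xFAD that shares its cells, and 31 in the mixed library, against 0 in each of the 6 main libraries. All of them had an in-frame junction equal to the one given by Cell Ranger. These 3 tables use allele 02 where the main libraries use allele 01, and the part of the germline set in the flag was not tested.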

How the results depend on the processing

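The number of the 8 genes past the threshold for genotype was 0, and it became 1 with TRAJ genes alone and without a node term (TRAJ22 in both) and without both iLN libraries (TRAJ21). Leaving out 1 library gave 0 to 1, and the 1 was TRAJ21 without either iLN library, which repeats the comparison without both. The node contrasts stayed at 0 of the 8 genes under every alternative run. The summed share difference of -2.58 percentage points was -3.26 with UMIs counted. Shared junctions numbered 280 by nucleotides and 585 by amino acids without V. The TRAJ24 share was 0.668% in place of 0.0177% in the CD4-titled library and 0.856% in place of 0.0575% in the mixed library whatever the productive flag, an alternative chosen after seeing the data. The 189 contigs with the TRAJ24 end stayed within 1.5 times with 20 or 40 bases searched.

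Over 23 alternatives the log2 fold change kept its sign for TRAJ21 (-1.13 to -0.01), TRAJ22 (-0.65 to -0.33), TRAJ24, TRAJ26 and TRAJ30. The value near -0.01 for TRAJ21 came from non-reference TRA chains alone, and the cause was not tested. That setting also turned TRAJ23 to 0.29, TRAJ27 to 0.031 and TRAJ28 to -0.16. TRAJ23 turned to 0.10 without both dCLN libraries, TRAJ27 to 0.022 without both iLN libraries, and TRAJ28 to -0.19 and -0.059 in these settings. Leaving out 1 library gave -0.16 to 0.098 for TRAJ23, -0.14 to 0.022 for TRAJ27 and -0.19 to 0.27 for TRAJ28. TRAJ28 was -0.012 with amino acid junctions, -0.025 with at least 2 UMIs and -0.015 with median-ratio size factors, and its largest moves were to 0.60 with UMIs counted and 0.47 with paired clonotypes counted. Those 3 genes had fitted changes under 0.1 in size, and the cause of the turns was not tested.

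Node type pairs the libraries of both genotypes in the main fit, and the fit without the node term is the unpaired one. TRAJ24 and TRAJ28 rest on 6 to 31 chains per main library, which limits their ratios most.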
